A study of Mus musculus with 6 samples.

Results

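Plasma cells are the antibody-secreting end stage of the B lineage, and 10 genes that mark or serve them were followed in RNA from lineage-depleted mouse bone marrow. The genes were taken by symbol from a table of read counts with 33924 gene rows. They comprise the transcription factor genes Prdm1 and Xbp1, the surface protein genes Sdc1 and Tnfrsf17, the secretory genes 2010001M09Rik (an older symbol of the gene called Mzb1 from here on), Derl3 and Fkbp11, and the antibody constant genes Ighm, Igkc and Ighg2c. All 10 had a row and all 10 were expressed highly enough to be among the 15708 genes tested. The samples were 3 libraries labelled Stag2KO and 3 labelled Stag2WT, all prepared from whole marrow after magnetic removal of cells carrying lineage markers. The product of Stag2 belongs to cohesin, a ring-shaped complex that folds chromatin into loops. The allele, any Cre driver, the age of the animals and whether each library came from a separate animal are not stated in the sources used here. The p-values therefore cover only the variation among these libraries.

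A B cell that becomes a plasma cell switches on Prdm1, which encodes the repressor Blimp-1, and Xbp1, which encodes a factor of the unfolded protein response that enlarges the secretory machinery. XBP1 becomes an active factor after its transcript is cut by the sensor IRE1, the product of Ern1. Long-lived plasma cells lodge in the bone marrow, where the receptor BCMA, encoded by Tnfrsf17, helps to keep them alive. An antibody has heavy chains, here of the mu class from Ighm or of a gamma class from Ighg2c and its neighbours, and light chains that are mostly kappa, from Igkc. In some inbred mouse strains Ighg2c takes the place that Ighg2a holds in others. Antibody transcripts are made by B cells as well as by plasma cells, and Xbp1, Derl3 and Fkbp11 serve secretion in other cell types too.

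The libraries held 29435651 to 37722325 reads assigned to genes. Stag2 itself stood at 169, 187 and 183 CPM (normalised reads per 1000000 gene reads) in the Stag2KO libraries and at 338, 329 and 324 CPM in the Stag2WT libraries, a fitted log2 fold change of -0.88 (SE 0.06, edgeR quasi-likelihood adjusted p = 0.000278). Reads outside annotated genes made up 11.1% to 12.8% of the table total in Stag2KO and 8.81% to 10.1% in Stag2WT. The marrow was a mixture of cells: the progenitor and stem cell markers summed to 1377 to 1474 CPM in Stag2KO, against 1188 to 1265 CPM in Stag2WT, with Kit, Cd34 and Flt3 among them and none of the 8 markers at 0. Of the 7 lineage antigens looked up, none was at 0 either, and they summed to 793.5 to 959 CPM in Stag2KO, against 788 to 987 CPM in Stag2WT. In such bulk RNA, fewer plasma cells and less RNA of a gene per plasma cell cannot be told apart.

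Ighg2c and Sdc1 fell in Stag2KO marrow, and no member rose. The heavy chain gene Ighg2c dropped to a fitted 23.1% of the Stag2WT level and Sdc1, the gene of the plasma cell surface protein CD138, to 65.9%. The remaining 8 members did not pass the test. Among all tested genes 10.5% were called lower and 10.7% higher at an adjusted p under 0.05, and the 2 of 10 members called lower are to be read against that background. At an unadjusted edgeR p under 0.05 there were 4 members lower and 0 higher, where 18.5% of all tested genes were lower and 18.6% higher. DESeq2 called 3 members lower and 0 higher, where it called 13.2% of all genes lower and 12% higher. Fitted fold changes were below 0 for 9 members and above 0 for 1, Fkbp11. The median of the members was -0.57 on the log2 scale, against 0.01 for all tested genes. In Ighg2c and Xbp1 every Stag2KO value lay below every Stag2WT value, a pattern seen in 21.2% of tested genes.

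**Figure D1:**
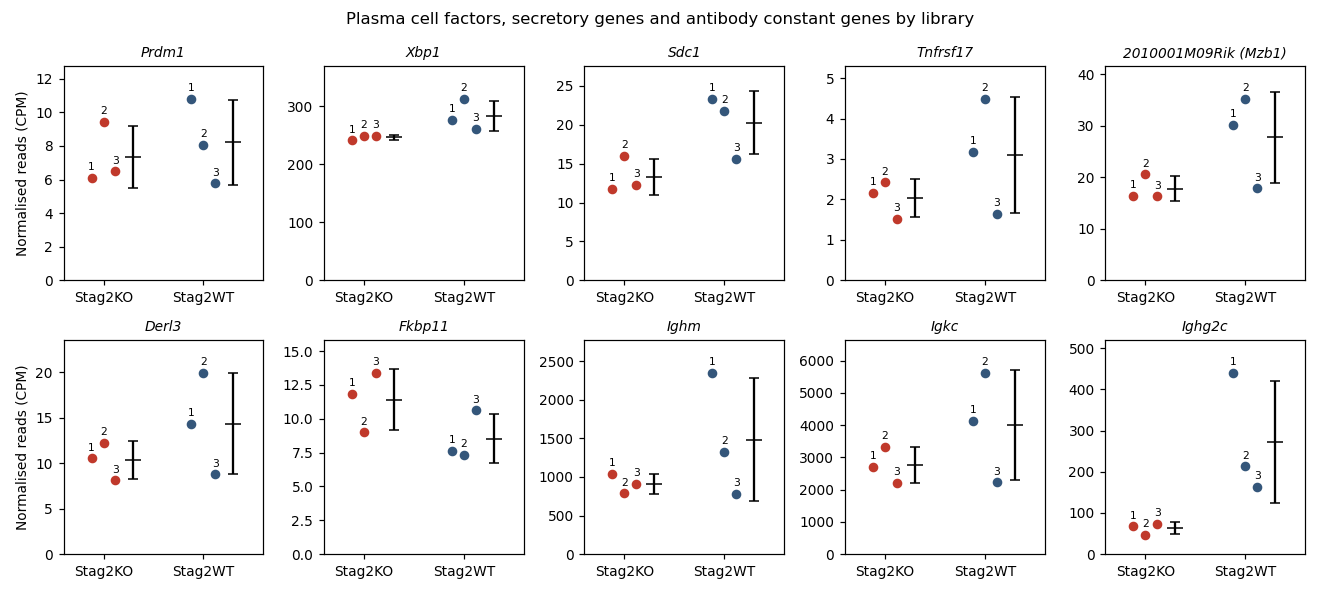
CPM of each of the 10 genes in 3 Stag2KO libraries (left, red) and 3 Stag2WT libraries (right, blue), with replicate numbers as small digits and black bars for the mean and SD of 3 libraries. The groups are fully apart for Ighg2c, at 47.2 to 74.4 CPM in Stag2KO, against 163 to 440 CPM in Stag2WT, and for Xbp1, while in most other panels Stag2WT replicate 3 sits at the level of the Stag2KO libraries.

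Scaled to the exon length of each gene in GENCODE vM21, the members spanned more than 3 orders of magnitude in level. The library kit is not stated in the sources used here, and lengths come from GRCm38 while the counts were made on mm9, so this order is approximate. Igkc averaged 5174 CPM per kilobase in Stag2KO and 7508 in Stag2WT, and Ighm averaged 483 in Stag2KO and 786 in Stag2WT. Both stood above every other member in all 6 libraries. Xbp1 came next in Stag2KO, at 76.0 CPM per kilobase against 47.5 for Ighg2c. In Stag2WT Ighg2c came next, at 205 CPM per kilobase against 87.5 for Xbp1, and the ranges of these genes did not overlap in either group. Mzb1 followed at 14.6 CPM per kilobase in Stag2KO and 22.8 in Stag2WT. Below it Derl3, Fkbp11, Sdc1 and Tnfrsf17 lay at 1.86 to 6.15 CPM per kilobase in the Stag2KO libraries and at 2.01 to 9.99 in the Stag2WT libraries. By mean level their order was Derl3, Fkbp11, Sdc1 and Tnfrsf17 in Stag2KO and Derl3, Sdc1, Tnfrsf17 and Fkbp11 in Stag2WT. The values of genes next to each other in these orders overlapped, except those of Sdc1 and Tnfrsf17 in Stag2KO. Prdm1 was lowest, at 1.32 CPM per kilobase in Stag2KO and 1.47 in Stag2WT.

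Neither factor gene passed the test. Prdm1 was at 6.10, 9.45 and 6.50 CPM in Stag2KO, against 10.8, 8.08 and 5.76 CPM in Stag2WT. The groups overlapped, the lowest of the 6 values being that of Stag2WT replicate 3. The fitted log2 fold change was -0.16 (95% interval -0.76 to 0.44, adjusted p = 0.688 by edgeR), and it was 0.087 without Stag2WT replicate 1. Xbp1 was the steadiest member, at 242, 249 and 249.6 CPM in Stag2KO (246.7 ± 4.39, SD, n = 3) and 277, 313 and 262 CPM in Stag2WT (284 ± 26.2, SD, n = 3). Each Stag2KO library lay below each Stag2WT library, yet the log2 fold change of -0.20 (SE 0.08, adjusted p = 0.0893 by edgeR) missed the threshold. The counts cover the whole gene and do not separate the cut, active form of the Xbp1 transcript from the uncut one.

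Irf4 and Pou2af1, regulators outside the 10 genes, fell, whereas the factor genes Zbtb20 (0.39 on the log2 scale), Bhlha15 (0.18) and Creb3l2 (0.08) of the same wider list were not called, these 3 being picked after their values had been seen. Irf4, which acts upstream of Prdm1, averaged 16.4 ± 2.80 CPM in Stag2KO, against 41.5 ± 9.30 CPM in Stag2WT (SD, n = 3 each; log2 fold change -1.34, SE 0.19, adjusted p = 0.00429 by edgeR). Pou2af1, a coactivator of antibody genes in B and plasma cells, was at 20.9 ± 1.81 CPM in Stag2KO, against 56.9 ± 12.4 CPM in Stag2WT (-1.44, SE 0.16, adjusted p = 0.00183). Both are also expressed by B cells, whose markers moved with them: of 17 mature B cell markers 11 were lower, 1 higher and 5 not called. The shares over all tested genes were 10.5% lower and 10.7% higher. The 17 markers had summed levels of 574 to 849.8 CPM in Stag2KO, against 846 to 1304 CPM in Stag2WT, and no marker was at 0. The B cell factor genes Pax5 (-2.83 in log2 units), Ebf1 (-2.14) and Bach2 (-1.50) were among those called lower. The part of B cells in the fall of Irf4 and Pou2af1 was not tested.

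Of the surface protein genes Sdc1 fell, while Tnfrsf17 was not called. Sdc1 encodes syndecan-1, a heparan sulfate proteoglycan used to sort plasma cells. It was at 11.7, 16.0 and 12.3 CPM in Stag2KO, against 23.3, 21.8 and 15.7 CPM in Stag2WT. Stag2KO replicate 2 lay slightly above Stag2WT replicate 3, so the groups overlapped. The log2 fold change came to -0.60 (SE 0.18, adjusted p = 0.0464 by edgeR), and Sdc1 was no longer called without Stag2KO replicate 1 (adjusted p = 0.121) or 3 (0.124) and without Stag2WT replicate 1 (0.118) or 2 (0.135), as well as by limma-voom (0.0593). Tnfrsf17 was the shallowest member, with 56 to 157 reads a library. It stood at 2.16, 2.42 and 1.52 CPM in Stag2KO, against 3.17, 4.48 and 1.64 CPM in Stag2WT (-0.61, 95% interval -1.44 to 0.22, adjusted p = 0.257). Its values spread 2.74-fold within Stag2WT, with replicate 2 highest and replicate 3 among the Stag2KO values.

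Receptor genes related to Tnfrsf17 were called in opposite directions. Tnfrsf13b, which encodes TACI, a receptor for the same ligands, rose to 84.7 ± 3.84 CPM in Stag2KO, against 54.4 ± 6.56 CPM in Stag2WT (SD, n = 3 each; log2 fold change 0.64, SE 0.09, adjusted p = 0.00326 by edgeR). Tnfrsf13c, the gene of the BAFF receptor of B cells, fell to 4.15 ± 0.307 CPM in Stag2KO, against 11.96 ± 0.954 CPM in Stag2WT (-1.53, SE 0.13, adjusted p = 0.000578). The ligand genes Tnfsf13, encoding APRIL (0.01, adjusted p = 0.981), and Tnfsf13b, encoding BAFF (0.66, adjusted p = 0.0931), were not called and were picked after their values had been seen.

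Of the secretory genes, Mzb1 and Derl3 had values below and Fkbp11 values above Stag2WT on average, none past the test. Mzb1 encodes an endoplasmic reticulum protein that assists antibody assembly. It was at 16.4, 20.6 and 16.3 CPM in Stag2KO, against 30.1, 35.2 and 17.8 CPM in Stag2WT (log2 fold change -0.64, 95% interval -1.23 to -0.05, adjusted p = 0.109 by edgeR). Stag2WT replicate 3 lay among the Stag2KO values. Without that library the log2 fold change was -0.88 (adjusted p = 0.0104), and DESeq2 on all 6 libraries also called it (adjusted p = 0.0191). In the GRCm38 annotation Mzb1 overlaps a neighbouring gene on the same strand, so part of its reads may have been set aside as ambiguous.

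Derl3 encodes derlin-3, a membrane protein that helps to pull misfolded proteins out of the endoplasmic reticulum. Its values were 10.5, 12.3 and 8.09 CPM in Stag2KO, against 14.3, 19.9 and 8.78 CPM in Stag2WT (-0.48, 95% interval -1.20 to 0.24, adjusted p = 0.293). Fkbp11 encodes a prolyl isomerase of secretory cells. Its order was the opposite, with 11.9, 8.99 and 13.4 CPM in Stag2KO, against 7.62, 7.34 and 10.6 CPM in Stag2WT (0.42, 95% interval -0.03 to 0.87, adjusted p = 0.158). The Fkbp11 groups overlapped, because Stag2WT replicate 3 exceeded Stag2KO replicate 2.

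The start regions of Derl3 and Fkbp11 are printed because these secretory genes had opposite orders across the libraries, with that of Sdc1 as the called surface gene. Windows run from 250 bases before to 50 bases after the RefSeq start (GRCm38.p6), read 5′ to 3′ on the gene's strand. Capitals mark CCACG or its complement CGTGG, and, where it is paired at the right distance, the ATTGG box that together with it makes an endoplasmic reticulum stress element. That element is CCAAT followed after 9 bases by CCACG, searched on both strands, and it contains one of the CCACG matches.
Derl3 (chr10:75893148-75893447, + strand): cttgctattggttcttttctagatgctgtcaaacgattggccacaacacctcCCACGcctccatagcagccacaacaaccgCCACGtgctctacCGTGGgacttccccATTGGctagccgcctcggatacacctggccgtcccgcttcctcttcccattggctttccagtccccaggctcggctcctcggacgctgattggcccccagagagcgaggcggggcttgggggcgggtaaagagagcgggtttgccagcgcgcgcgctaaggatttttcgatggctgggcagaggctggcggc
Fkbp11, upstream start (chr15:98728149-98728448, - strand): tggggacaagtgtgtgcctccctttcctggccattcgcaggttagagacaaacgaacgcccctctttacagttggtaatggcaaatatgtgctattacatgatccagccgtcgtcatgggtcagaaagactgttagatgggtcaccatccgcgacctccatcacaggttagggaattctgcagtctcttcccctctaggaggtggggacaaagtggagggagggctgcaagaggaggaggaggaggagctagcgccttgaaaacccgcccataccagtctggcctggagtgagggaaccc
Fkbp11, downstream start (chr15:98727578-98727877, - strand): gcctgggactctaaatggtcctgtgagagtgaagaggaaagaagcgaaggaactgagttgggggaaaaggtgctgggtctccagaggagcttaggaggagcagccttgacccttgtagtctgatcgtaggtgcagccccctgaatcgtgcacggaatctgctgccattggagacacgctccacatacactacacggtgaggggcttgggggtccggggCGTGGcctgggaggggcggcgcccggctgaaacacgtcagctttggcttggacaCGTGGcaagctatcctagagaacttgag
Sdc1 (chr12:8771146-8771445, + strand): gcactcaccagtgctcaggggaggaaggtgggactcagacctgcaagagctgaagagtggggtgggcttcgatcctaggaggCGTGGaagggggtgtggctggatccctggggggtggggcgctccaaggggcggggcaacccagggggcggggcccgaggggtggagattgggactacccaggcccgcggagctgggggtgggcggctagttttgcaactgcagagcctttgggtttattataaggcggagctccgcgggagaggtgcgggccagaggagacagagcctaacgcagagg
Derl3 held 1 complete stress element, which was present in 0.119% of 32851 windows of the same length, and 3 CCACG matches. Fkbp11 held none at its upstream start and 2 CCACG matches at its downstream start. Sdc1 held 1 CCACG match. CCACG alone, added to the search after the other motifs had been read, is common, being found in 32.8% of windows. Of the 10 members, Mzb1 was not looked up and 6 had a window. Of these 6, 1 held the complete element (0.137% of 27025 genes) and 4 held CCACG (35.5% of genes). A gene was counted if any of its windows matched. The unfolded protein response element TGACGTGG (0.676% of windows, 0.714% of genes) and the octamer ATTTGCAT (1.74% of windows, 1.97% of genes), both searched on either strand, were in 0 of the 6.

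The kappa constant gene Igkc was the most abundant member and was not called. In GRCm38 it overlaps a long noncoding gene on its own strand. It stood at 2709, 3335 and 2214 CPM in Stag2KO, against 4139.7, 5618 and 2225 CPM in Stag2WT. Stag2WT replicates 1 and 2 were above all Stag2KO libraries, and Stag2WT replicate 3 was level with the lowest of them. The log2 fold change was -0.54 (95% interval -1.39 to 0.31, adjusted p = 0.311 by edgeR); without Stag2WT replicate 3 it was -0.83 and past the threshold (adjusted p = 0.0402). Ighm was at 1038, 786 and 908 CPM in Stag2KO, against 2348, 1323 and 778 CPM in Stag2WT (-0.70, 95% interval -1.77 to 0.36, adjusted p = 0.284). Its Stag2WT values spread 3.02-fold, against 1.32-fold in Stag2KO. Igj, which encodes the J chain that joins IgM and IgA into polymers, was at 1226, 1779.9 and 1027 CPM in Stag2KO, against 1618, 2512 and 928 CPM in Stag2WT (-0.33, adjusted p = 0.61). Its log2 fold change was 0.082 without Stag2WT replicate 2.

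Ighg2c, the gamma 2c heavy chain gene, fell, and its groups were fully apart. It was at 67.6, 47.2 and 74.4 CPM in Stag2KO, against 440.3, 213 and 163 CPM in Stag2WT, and the highest Stag2KO value was under the lowest Stag2WT value. The log2 fold change came to -2.11 (SE 0.46, 95% interval -3.30 to -0.92, adjusted p = 0.0368 by edgeR). Ighg2c was no longer called without Stag2KO replicate 1 (adjusted p = 0.109), 2 (0.107) or 3 (0.116), without Stag2WT replicate 2 (0.0709), and with no filter on low counts (0.0697), while the fold change stayed between -2.38 and -1.58 in the fits that left out 1 library. The row listed as Ighg, whose subclass the table does not name, had 81.3, 145 and 147 CPM in Stag2KO, against 916, 514 and 242 CPM in Stag2WT. These groups did not overlap either, but the log2 fold change of -2.16 was not called (adjusted p = 0.0639). Ighg was called with the filter of 5 CPM (0.0463), by DESeq2 (0.00117), by limma-voom (0.0222), with no robust dispersion (0.0182) and without Stag2WT replicate 3 (0.0248). Ighg1 was at 3.80, 6.75 and 23.4 CPM in Stag2KO, against 118, 62.2 and 4.16 CPM in Stag2WT, a 28.4-fold spread within Stag2WT (-2.43, adjusted p = 0.265).

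The gamma genes are close copies, and their opening bases are printed to show how near they lie. Each line gives the first 40 bases of 1 GENCODE vM21 transcript of the gene (GRCm38, first exon, - strand of chromosome 12), with capitals where a base differs from Ighg2c.
Ighg2c (chr12:113288893-113288932, - strand): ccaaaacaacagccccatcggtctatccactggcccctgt
Ighg2b (chr12:113307894-113307933, - strand): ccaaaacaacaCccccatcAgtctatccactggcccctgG
Ighg1 (chr12:113330484-113330523, - strand): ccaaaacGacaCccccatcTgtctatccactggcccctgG
Ighg3 (chr12:113361193-113361232, - strand): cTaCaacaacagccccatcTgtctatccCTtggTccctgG
Over the aligned transcripts Ighg2b was 86.4% identical to Ighg2c, with a longest shared run of 78 bases. Ighg1 was 76.8% identical with a run of 28 bases, and Ighg3 76.6% identical with a run of 41 bases. Of these 4 only Ighg2c and Ighg1 were used here as rows of the table, so reads of another gamma class that match Ighg2c may be counted in its row, and the split among gamma rows is uncertain.

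**Figure D2:**
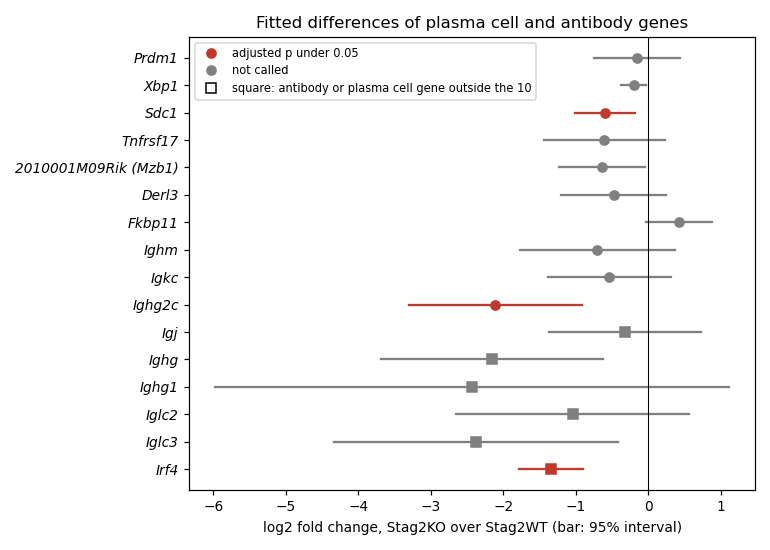
Log2 fold changes, Stag2KO over Stag2WT, with 95% intervals from the edgeR fit, for the 10 members (circles) and for Irf4 and other antibody genes (squares), with red for an adjusted p under 0.05. Ighg2c lies at -2.11 and Sdc1 at -0.60, the intervals of Igkc, Ighm, Derl3, Tnfrsf17, Prdm1 and Fkbp11 span 0, and Fkbp11 alone has an estimate above 0.

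The gamma share of the heavy chain reads did not overlap between the groups. Of the reads in Ighm, Ighg, Ighg1 and Ighg2c together, the 3 gamma rows took 12.8%, 20.2% and 21.2% in Stag2KO (18.1% ± 4.59, SD, n = 3) and 38.6%, 37.4% and 34.5% in Stag2WT (36.8% ± 2.11, SD, n = 3). Ighm took the rest of these reads, 81.9% ± 4.59 in Stag2KO and 63.2% ± 2.11 in Stag2WT. No row for Igha, Ighd, Ighe, Ighg2b or Ighg3 was used, so the shares leave out other heavy chain classes such as that of IgA. Stag2WT replicate 3, whose Igkc and Ighm levels were those of the Stag2KO libraries, kept the gamma share of its own group. Ighg2c alone was 5.68%, 4.79% and 6.45% of heavy reads in Stag2KO and 11.5%, 10.1% and 13.8% in Stag2WT. The share of Ighg1 did overlap, at 0.319%, 0.686% and 2.03% in Stag2KO and 3.08%, 2.95% and 0.350% in Stag2WT. Set against the J chain gene, Ighg2c had 55.1, 26.5 and 72.4 reads per 1000 Igj reads in Stag2KO and 272, 84.9 and 176 in Stag2WT, again without overlap. Counting error was small, with 95% Wilson intervals of at most 0.462 percentage points either side for the gamma share. These shares are sums over genes of interest and were given no test. Groups fully apart are common, as 21.2% of tested genes had every Stag2KO value below every Stag2WT value.

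The lambda share of light constant reads did not overlap either. Iglc2 and Iglc3, the lambda constant rows used here, made up 2.56%, 1.06% and 1.68% of light constant reads in Stag2KO and 3.28%, 3.90% and 3.21% in Stag2WT, the remainder being Igkc. No Iglc1 row was used. Variable gene segments, described below, were not apart in this way. Lambda segments took 0.0252%, 0.0328% and 0.0112% of gene reads in Stag2KO and 0.0288%, 0.0395% and 0.0153% in Stag2WT. Kappa segments took 0.147%, 0.227% and 0.143% in Stag2KO and 0.273%, 0.331% and 0.146% in Stag2WT. Both overlapped between the groups, as did the lambda part of light segment reads. Iglc3 was at 14.1, 14.1 and 17.9 CPM in Stag2KO, against 37.6, 166 and 36.5 CPM in Stag2WT (a fitted log2 difference of -2.38, adjusted p = 0.0894 by edgeR). Without Stag2WT replicate 2, its highest library, the difference was -1.27 and past the threshold (adjusted p = 0.00394), and DESeq2 (0.00684) and the fit with no robust dispersion (0.0291) called Iglc3 on all libraries. Iglc2 was at 57.2, 21.4 and 19.8 CPM in Stag2KO, against 103, 62.0 and 37.4 CPM in Stag2WT (-1.04, adjusted p = 0.287). These rows are near-identical copies, so their split is uncertain. All antibody genes and segments together took 0.715%, 0.953% and 0.633% of gene reads in Stag2KO and 1.30%, 1.45% and 0.635% in Stag2WT, where the groups overlapped through Stag2WT replicate 3.

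**Figure D3:**
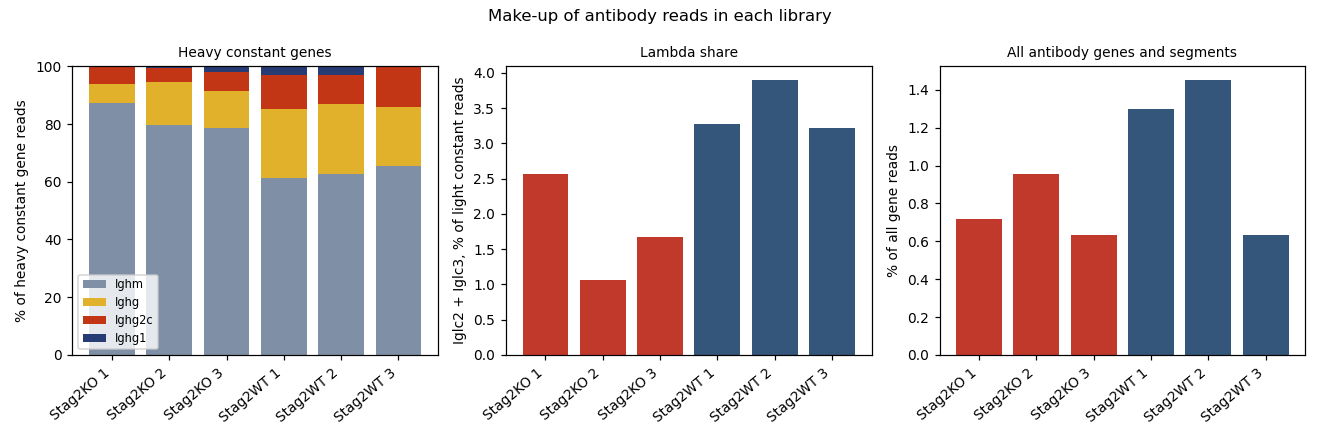
Antibody reads in each library, Stag2KO libraries first, as the percentage of heavy constant reads in each row (left), the lambda percentage of light constant reads (middle) and all antibody reads as a percentage of gene reads (right). The gamma rows take 12.8% to 21.2% in Stag2KO and 34.5% to 38.6% in Stag2WT, while total antibody reads overlap.

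Variable gene segments encode the antigen-binding part of each antibody chain and are spliced to the constant genes. Of 140 variable segment rows 114 were tested, of which edgeR called 4 lower and 0 higher and left 110 not called. The share called lower was 3.51%, under the 10.5% of all tested genes. At an unadjusted p under 0.05 there were 12 lower (10.5%, against 18.5% of all tested genes) and 0 higher. DESeq2 called 13 lower (11.4%, against 13.2%) and 1 higher, and limma-voom called 7 lower (6.14%, against 9.99%) and 0 higher (10.5% of all tested genes). The segments called were Igkv12-44 (log2 fold change -0.70), Igkv15-103 (-0.71), Igkv5-45 (-1.83) and Igkv9-129 (-1.39), named after their values had been seen. When libraries were left out 1 at a time, Igkv12-44 stayed called in 3 of the 6 fits, Igkv15-103 in 2, and Igkv5-45 and Igkv9-129 in all 6. The median over tested segments was -0.54, against 0.01 for all tested genes. The effective number of kappa segments (the inverse of the summed squared shares) was 32.9, 35.3 and 29.4 in Stag2KO and 23.1, 33.4 and 34.0 in Stag2WT, so the groups overlapped. The low value belonged to Stag2WT replicate 1, where Igkv1-110 alone took 13.3% of kappa segment reads. That library also held 7437 reads of Igkv1-88, a segment also singled out after its values had been seen, against 46 to 162 in the Stag2KO libraries and 1949 and 484 in the other Stag2WT libraries. Heavy segments gave effective numbers of 14.3, 12.5 and 13.1 in Stag2KO and 10.7, 14.7 and 13.5 in Stag2WT. Segments are similar in sequence and reads aligning to several places were 23.4% to 28.6% of each library's table total, so these numbers describe what was assigned to 1 row.

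Several members shared 1 order of the 6 libraries. Igkc, Derl3 and Tnfrsf17 all ranked Stag2WT replicate 2 highest, then Stag2WT replicate 1, Stag2KO replicate 2, Stag2KO replicate 1, Stag2WT replicate 3 and Stag2KO replicate 3. Stag2WT replicate 3 was the lowest of its group for 9 of the 10 members, Fkbp11 being the exception. Stag2WT replicates 1 and 2 were the highest of the 6 libraries for 4 and 5 members. Without Stag2WT replicate 3 the number of members called lower was 4, the added ones being Mzb1 and Igkc; without Stag2KO replicate 1 or 3 or Stag2WT replicate 2 it was 0, and without Stag2KO replicate 2 or Stag2WT replicate 1 it was 1.

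Among 10520 candidate genes averaging 5 CPM or more, Derl3 was the gene whose profile was most like that of Igkc. Likeness was the mean absolute difference between log2 CPM profiles over the 6 libraries, each centred on its own mean, and it was 0.06 for Derl3. Igj came next (0.10), followed by Fam55b (0.14) and Mzb1 (listed as 2010001M09Rik, 0.15). For Sdc1 the most similar profile was that of St6gal1, a sialyltransferase gene (0.05), followed by Clca1 (0.09), Atp7b (0.10), Slc46a3 (0.11) and Hpn (0.11). St6gal1 was at 23.6, 34.4 and 28.2 CPM in Stag2KO, against 48.9, 45.2 and 34.7 CPM in Stag2WT.

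**Figure D4:**
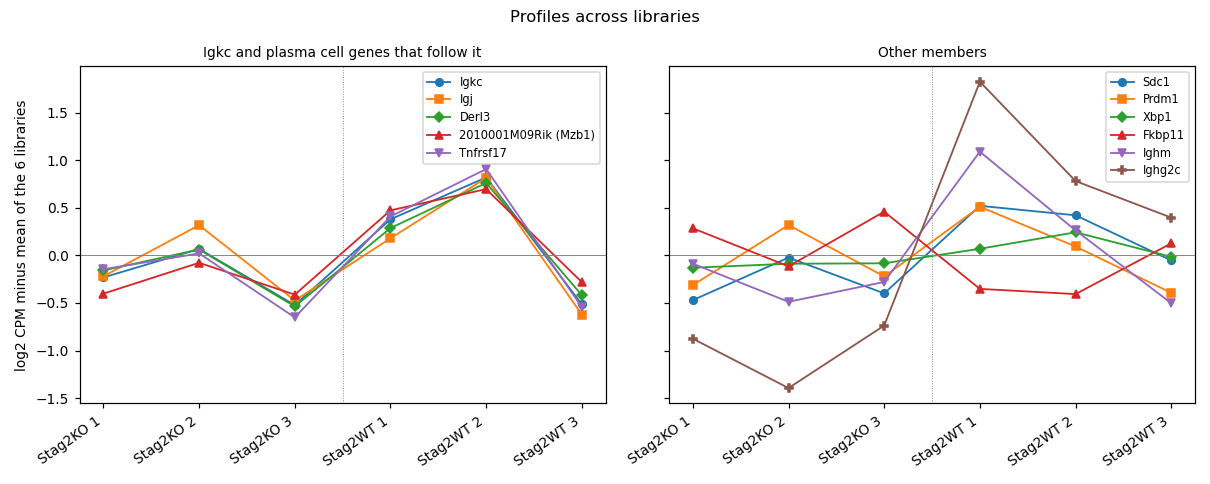
Log2 CPM of each gene minus its mean over the 6 libraries, with Stag2KO on the left and lines that only join the points of a gene. Igkc, Igj, Derl3, Mzb1 and Tnfrsf17 (left panel) peak in Stag2WT replicate 2 and lie low in Stag2WT replicate 3, and the other members (right panel) include Ighg2c below its mean in all Stag2KO libraries and Fkbp11, lowest in Stag2WT replicate 2.

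Beyond the 10 genes, a list of 24 further plasma cell genes held 8 that were lower, 2 higher and 14 not called. Of all tested genes 10.5% were called lower and 10.7% higher. The list had a median log2 fold change of 0.00, against 0.01 for all tested genes. Its summed level was 1978 to 2107 CPM in Stag2KO, against 2144 to 2224 CPM in Stag2WT. Besides Irf4, Pou2af1 and Tnfrsf13c, the falls included Cd38, an ectoenzyme gene of plasma and B cells, at 5.26 ± 1.26 CPM in Stag2KO, against 18.6 ± 3.09 CPM in Stag2WT (SD, n = 3 each; -1.82, SE 0.19, adjusted p = 0.00113 by edgeR). The remaining 4 were picked after their values had been seen. Ell2, an elongation factor gene used for secreted antibody transcripts, fell by 0.75 in log2 units (adjusted p = 0.0162), and Prdx4, a peroxiredoxin gene of the endoplasmic reticulum, fell by 0.75 (adjusted p = 0.00365). Il6st, the shared receptor gene of the interleukin 6 family, also fell by 0.75 (adjusted p = 0.016; 0.0535 without Stag2KO replicate 2). Txndc5, a protein disulfide isomerase gene, fell by 0.36 (adjusted p = 0.0418), a call that only the fit without Stag2WT replicate 3 kept among those leaving out 1 library (0.0616 to 0.12 in the others). Among genes also picked after their values had been seen, Cd93, which is also a stem and myeloid cell gene, was higher (0.41, adjusted p = 0.0125). Values without a call included Slamf7 (-0.68, adjusted p = 0.0967) and Cxcr4 (-0.17).

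A list of general endoplasmic reticulum genes was read in the same way. Of 50 listed genes 49 were tested, of which 5 were lower, 1 higher and 43 not called, with a median of -0.09 on the log2 scale against 0.01 for all tested genes. Their summed level was 12204 to 13220.5 CPM in Stag2KO, against 12185 to 14665 CPM in Stag2WT. The single rise was in Ern1, the gene of the sensor IRE1 that processes the Xbp1 transcript, at 251.1, 241 and 259.7 CPM in Stag2KO, against 142, 111 and 167 CPM in Stag2WT (0.84, SE 0.14, adjusted p = 0.00677 by edgeR), and it was called in all fits that left out 1 library. Sec61g, a subunit gene of the translocation channel, fell by 0.40 (adjusted p = 0.0322), the cochaperone gene Dnajb11 by 0.29 (adjusted p = 0.0343) and the ubiquitin ligase gene Syvn1 by 0.34 (adjusted p = 0.0346). Canx, encoding the chaperone calnexin, and Spcs1, a signal peptidase subunit gene, both picked after their values had been seen, fell by 0.28 (adjusted p = 0.0388) and 0.31 (adjusted p = 0.0393). None of these 5 small falls was called without Stag2KO replicate 2 (adjusted p 0.0797 to 0.108), Stag2KO replicate 3 (0.0611 to 0.0972) or Stag2WT replicate 2 (0.0554 to 0.0852). Without Stag2KO replicate 1 the calls of all but Syvn1 were lost (0.0867 to 0.106), without Stag2WT replicate 3 those of Dnajb11 (0.0584), Syvn1 (0.0651) and Canx (0.0759), and without Stag2WT replicate 1 that of Spcs1 (0.0564).

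Markers of other cells that could carry these transcripts moved in both directions. The counts of this paragraph are to be read against the 10.5% of all tested genes called lower and the 10.7% called higher. Early B cell markers had 6 of 9 tested lower, 1 higher and 2 not called, with summed levels of 309.9 to 351 CPM in Stag2KO, against 324 to 394 CPM in Stag2WT. The higher one, Cd93, made up most of the sum in Stag2KO, at 249 ± 11.1 CPM in Stag2KO, against 188 ± 18.9 CPM in Stag2WT (SD, n = 3 each). Vpreb3 (-2.27), Vpreb1 (-1.71), Igll1 (-1.55) and Rag1 (-2.81) were the named ones. Plasmacytoid dendritic cells, which also express Mzb1 and Derl3, had 1 of 12 markers lower, Cox6a2 (-1.31, adjusted p = 0.00621), and 11 not called. Their summed level was 766 to 1397 CPM in Stag2KO, against 921 to 1314 CPM in Stag2WT. T cell markers were low, at 34.0 to 75.8 CPM summed in Stag2KO and 51.8 to 104 CPM in Stag2WT, with 4 of 8 lower (Cd3e, Cd3g, Cd8a and Trac) and 4 not called. Macrophage markers summed to 322 to 469 CPM in Stag2KO, against 1098 to 1245 CPM in Stag2WT, with 10 of 11 lower, Siglec1 (-3.65), Mrc1 (-3.38), Cd163 (-2.44) and Vcam1 (-1.36) among them. Granule-forming myeloid precursor markers summed to 15068 to 18827 CPM in Stag2KO, against 9999 to 11653 CPM in Stag2WT, with 6 of 7 higher, Epx (1.68), Prg2 (1.14), Prtn3 (0.63) and Mpo (0.58) among them. Calls were lost for Cd8a without Stag2KO replicate 2 (adjusted p = 0.0536), for Trac without Stag2KO replicate 1 (0.0551) or 2 (0.0537), for Mpo without Stag2KO replicate 3 (0.0506), and for Prtn3 without Stag2KO replicate 1 (0.0716) or 3 (0.0611) or Stag2WT replicate 1 (0.0659) or 2 (0.0997). The plasma cell markers themselves had 3 of 11 lower, Sdc1, Irf4 and Pou2af1, and 8 not called, with a median log2 fold change of -0.60 and summed levels of 1387 to 2158 CPM in Stag2KO, against 1342 to 3046 CPM in Stag2WT that Igj dominated. No marker of these lists was at 0 in all libraries, and the part of other cells in the values of Prdm1, Xbp1, Fkbp11 and the antibody genes was not tested.

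**Figure D5:**
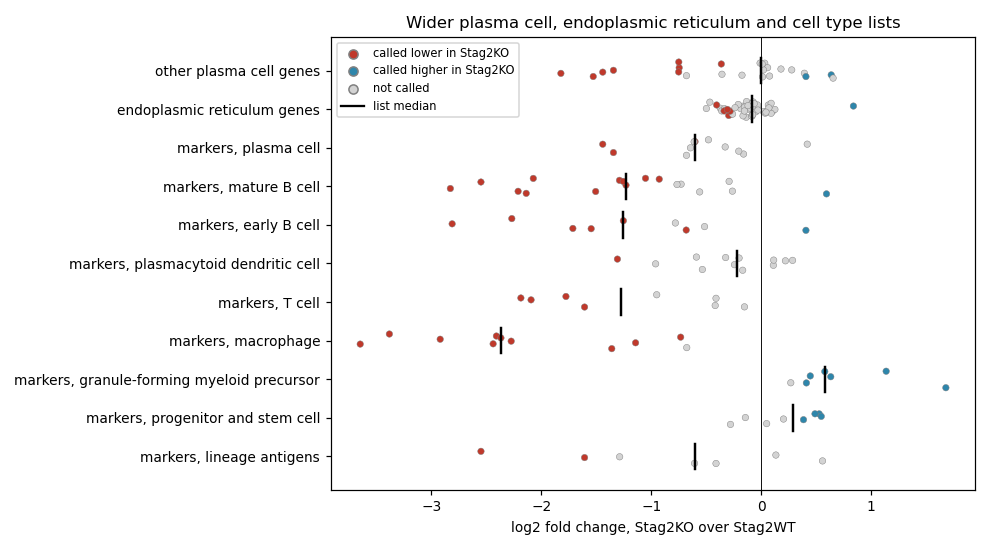
Log2 fold changes, Stag2KO over Stag2WT, of each tested gene in the wider lists; red points were called lower, blue points higher and grey points neither, and black lines are list medians. The medians are 0.00 for the further plasma cell genes, -0.09 for the endoplasmic reticulum genes, -0.60 for the plasma cell markers, -1.23 for the mature B cell markers and -2.37 for the macrophage markers.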

How the data were processed

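RNA from lineage-depleted bone marrow was sequenced in 3 Stag2KO and 3 Stag2WT libraries. The authors deposited gene-level raw counts in 1 table. STAR 2.4, HTSeq 0.6.1, DESeq2 and mm9 are named per the submitters' processing notes, while the gene annotation, strand setting and library kit are not stated in the sources used here. Rows of the counter that name no gene were left out: reads outside genes were 8.81% to 12.8%, ambiguous reads 2.02% to 2.20% and reads with several places 23.4% to 28.6% of each table column. The libraries held 29435651 to 37722325 gene reads.

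Counts were scaled by TMM, filtered with filterByExpr and tested with the quasi-likelihood test of edgeR 4.0.16 in R 4.3.3, with Benjamini-Hochberg adjustment over all 15708 tested genes and a threshold of 0.05. CPM is normalised reads per 1000000 gene reads. SE is the size of the log2 fold change divided by the square root of F. The procedure was tested on simulated data. The alternatives tried were DESeq2 1.42.0, limma-voom (limma 3.58.1), scaling by median ratios, a filter of only 1 read, a filter of 5 CPM in 3 libraries, no robust dispersion, antibody genes left out of library totals, and each library left out. Wilson 95% intervals cover counting error only. With 3 against 3 libraries an exact permutation test cannot go below p = 0.1.

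The text names the 10 members, all antibody constant genes found, up to 4 genes of smallest p per list, and the 5 genes most like Igkc and Sdc1; others are said to be picked after their values had been seen. Of the genes this rule names, 2 are not reported here. Members and lists were chosen with earlier results of these data known. Replicate numbers follow accession order. Promoter windows come from RefSeq (GRCm38.p6), where Mzb1 was not looked up and 6 of the 10 members had a window. Lengths and heavy chain transcripts come from GENCODE vM21.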

Additional observations from a re-analysis of the deposited data

How the results depend on the processing

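Leaving out 1 library at a time gave log2 fold changes of -0.76 to -0.49 for Sdc1, -2.38 to -1.58 for Ighg2c, -0.88 to -0.43 for Mzb1, -0.83 to -0.21 for Igkc, -0.62 to 0.082 for Igj and -0.38 to 0.087 for Prdm1. It gave 0 to 4 members called lower and 1967 to 2548 genes called, against 3333 with all libraries. Prdm1 changed sign without Stag2WT replicate 1 (0.087) and Igj without Stag2WT replicate 2 (0.082), neither of them called in any fit. Sdc1 lost its call with the filter of 5 CPM (-0.60), by limma-voom (-0.59) and with no robust dispersion (-0.60), and Ighg2c with no filter (-2.11). DESeq2 added Mzb1 (-0.65), giving 3 members called lower, and each of the settings that lost a call left 1. The cause of these changes was not tested. Genes called in all numbered 3322 with median-ratio size factors, 3320 with no filter, 2552 with the filter of 5 CPM, 3875 by DESeq2, 3211 by limma-voom, 3259 with no robust dispersion and 3320 without antibody genes in the totals. No paired analysis was possible because the replicate numbers follow accession order and pair nothing. Depth limits Tnfrsf17 most, at 56 to 157 reads a library.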
